A study of Mus musculus with 8 samples.

Results

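The clustered protocadherins are cell-surface adhesion proteins of the cadherin superfamily that are encoded side by side in the alpha, beta and gamma gene clusters. Every row of the deposited count table whose symbol names a member of these clusters was taken, which gave 48 genes of 18251: 6 alpha, 21 beta, 12 gamma-A, 6 gamma-B and 3 C-type genes of the gamma cluster (Pcdhgc3, Pcdhgc4 and Pcdhgc5). The family was chosen by the lower counts of Pcdhga1 in DOX than in control tumours, so the values of Pcdhga1 and the counts of members in this comparison are given as descriptions and not as tests of the family. RNA was sequenced in bulk from 8 subcutaneous tumours formed by MC38, a mouse colon cancer cell line, in male C57 mice that were 7 weeks old. All 8 tumours carried TetOn-CXCL14, a construct in the injected cells that makes the chemokine CXCL14 in the presence of doxycycline (DOX). The DOX group consisted of 4 tumours from mice that drank water containing 1 mg/mL DOX over 3 days, and the controls were 4 tumours from mice left without DOX. Since no group received DOX in the absence of the construct, effects of DOX and of CXCL14 cannot be told apart, and the species of the CXCL14 sequence is not stated in the labels.

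In neurons, where the family is best known, each cell expresses its own combination of isoforms, and matching isoforms on neighbouring cells recognise each other, a signal used in self-avoidance of dendrites and axons. Each gene of the alpha and gamma clusters joins its own long first exon, which encodes the extracellular cadherin repeats, to constant exons that encode a shared end of the cytoplasmic domain, whereas beta genes are single-exon genes without a constant part. Choice among the promoters depends on the DNA-binding protein CTCF and on cohesin, and the C-type genes are regulated apart from the others. Outside the nervous system, methylation and silencing of these clusters has been described in several cancers.

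Per tumour, 18685975 to 19307481 counts were assigned to genes. Cxcl14, the induced gene, had 30.1, 30.2, 20.3 and 15.8 CPM (counts scaled to library size) in DOX tumours 1 to 4, against 9.34, 9.69, 8.30 and 9.59 CPM in control tumours 1 to 4. Its log2 fold change was 1.38 ± 0.20 (SE), with an adjusted p of 0.387 in edgeR's test, which thus did not call the induced gene itself. Of the 8 epithelial markers in the table, Cdh1 was the 1 that passed the filter on low counts. It had 6.06 to 8.62 CPM in DOX tumours, against 19.8, 4.77, 5.03 and 5.14 CPM in control tumours 1 to 4. Control tumour 1 was thus the only control tumour above the DOX range. Epcam, Krt8 and Krt18, which define epithelial cells, had at most 7, 19 and 2 counts in any tumour, although the tumours are labelled as colon cancer. Control tumours 1 and 2 were singled out after the marker values, given below, were seen. Both were higher than the other 6 tumours in 10 of the 15 neuron markers. The same held for 4 of 13 Schwann cell and glia markers, 3 of 12 fibroblast markers and 0 of 11 T cell markers. The share over all genes is not given here, so nothing is read from these counts. Among the 13436 tested genes, edgeR's quasi-likelihood test called 0.00744% at a Benjamini-Hochberg adjusted p of 0.05, and 3.95% were lower and 7.65% higher in DOX tumours at an unadjusted p of 0.05.

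The clusters lie in a row on the plus strand of chromosome 18 in GRCm38 (GENCODE M21). The annotated alpha genes run over positions 36930184 to 37187661, the beta genes over 37264938 to 37524479 and the gamma genes over 37661793 to 37841873. The gamma genes share constant exons of 59 and 89 bases in all 22 annotated members, and the same last exon, which is annotated with 1971 bases in 17 of them and, with an earlier end, with 1968 bases in the other 5. In the annotation, 41.2% to 65.9% of the 50-base words of a gamma-A transcript also occur in another gene, with the highest share in Pcdhga4 and 44.7% in Pcdhga1. For gamma-B transcripts the share is 45.9% to 54.6%, for C-type transcripts 41.6% to 44.7%, and for the 21 beta transcripts 1.80% to 12%.

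This sharing bears on every gamma value below, because the deposited counts are expected counts, in which a read that fits several genes can be divided among them. Of the gamma values above 0, 168 of 168 (100%) lay more than 0.005 from a whole number. The corresponding share was 120 of 152 beta values (78.9%, with 70.6% to 88.9% per library), 5 of 9 alpha values (55.6%) and 39.2% of the values of all other genes. All 21 gamma members lacked a whole count in every one of the 8 libraries, as did 8 of the 10 tested beta members and 32.2% of the other tested genes. The plot of sequence sharing by member sets both measures side by side. The sum over all gamma genes does not depend on how reads were divided among them. The gamma-A, gamma-B and C-type sums, given beside the members, do depend on it, since these groups share the constant exons.

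**Figure D1:**
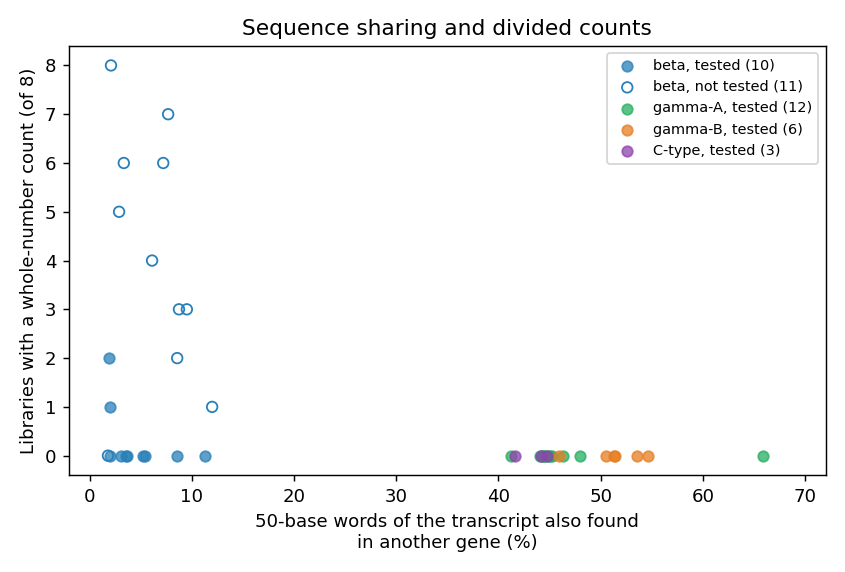
Each point is 1 beta or gamma gene, placed by the share of its 50-base words that occur in another gene (horizontal axis, percent) and by the number of the 8 libraries in which its count is a whole number, a count of 0 included (vertical axis). Filled points passed the filter on low counts and open points did not. All 21 gamma points sit at 0 libraries and at 41.2% or more shared words, whereas the beta points lie at 12% or less.

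The alpha cluster was barely detected. Its 6 genes had 21.21 counts in all across the 8 tumours, no gene had more than 6 in any tumour, and none passed the filter on low counts. Pcdha12 had 6 counts, all in 1 tumour, and Pcdha10 had 1.5 counts in all. With so few counts, no difference between DOX and control tumours in the alpha genes was detectable at this depth.

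The C-type genes carried most of the family's RNA, through Pcdhgc3. This gene, a C-type isoform that is also known outside the brain, averaged 50.03 FPKM (a level scaled to transcript length and library size) over the 8 tumours and ranked 1715 of 18251 genes by that measure. It took between 74.4% and 77.8% of all gamma counts in each tumour. Pcdhgc3 had 245, 218, 270 and 220 CPM in DOX tumours 1 to 4, against 187, 256, 259 and 200 CPM in control tumours 1 to 4. The groups overlapped, with the highest value in DOX tumour 3 and the lowest in control tumour 1, and the log2 fold change was 0.08 ± 0.12 (SE). The constant exons are shared by every gamma gene, so how many reads of the other gamma genes were assigned to Pcdhgc3, or the reverse, was not tested.

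Pcdhgc4, a C-type isoform whose loss leads to death of neurons in mice, had 2.55, 1.15, 3.10 and 4.68 CPM in DOX tumours 1 to 4 and 3.16, 1.82, 3.00 and 2.19 CPM in control tumours 1 to 4. Its values spread widely in both groups, and its log2 fold change was 0.17 ± 0.38 (SE). Pcdhgc5, the C-type gene at the end of the cluster, had 2.96, 2.13, 4.81 and 6.32 CPM in DOX tumours 1 to 4, against 2.42, 3.17, 3.00 and 2.17 CPM in control tumours 1 to 4. DOX tumours 3 and 4 lay above every control tumour, and DOX tumours 1 and 2 did not. The log2 fold change of Pcdhgc5 was 0.59 ± 0.32 (SE), with an adjusted p of 0.498 in edgeR's test. Summed over the 3 C-type genes, the level was 245 ± 25.0 CPM in DOX tumours and 231 ± 37.5 CPM in control tumours (SD, n = 4 each).

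**Figure D2:**
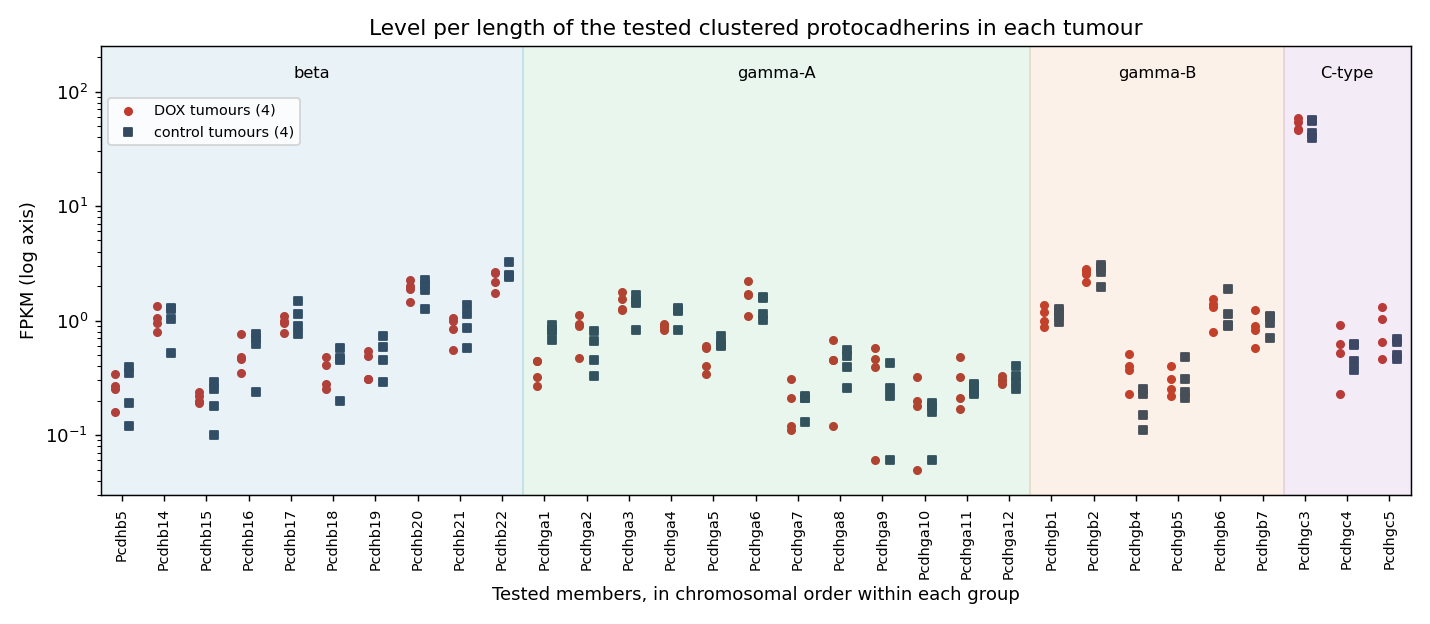
FPKM of each of the 31 tested members on a log axis, in chromosomal order within each group, with 1 point for each of the 4 DOX tumours (circles) and 4 control tumours (squares). Pcdhgc3 stands far above the other members. Of those, Pcdhgb2 and Pcdhb22 are the highest.

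The remaining members were expressed at low levels per length. After Pcdhgc3, the highest means were 2.59 FPKM for Pcdhgb2, 2.47 FPKM for Pcdhb22, 1.87 FPKM for Pcdhb20 and 1.5 FPKM for Pcdhga6. Pcdh18, a protocadherin outside the clusters, averaged 40.9 FPKM in the same tumours.

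Pcdhga1, the first gene of the gamma cluster, had 2.01, 1.49, 2.05 and 1.28 CPM in DOX tumours 1 to 4, against 4.41, 3.75, 3.81 and 3.19 CPM in control tumours 1 to 4. Every DOX tumour lay below every control tumour, and the groups averaged 1.71 ± 0.384 and 3.79 ± 0.50 CPM in DOX and control tumours (SD, n = 4 each). Its log2 fold change was −1.14 ± 0.21 (SE). These values rest on 38.92, 28.66, 39.19 and 23.92 expected counts in DOX tumours 1 to 4 and 80.79, 72.27, 73.33 and 59.51 in control tumours 1 to 4. Pcdhga1 was the only tested member whose groups did not overlap. Across the 13436 tested genes, 5.68% had groups that did not overlap, 2.41% with DOX tumours lower and 3.27% with DOX tumours higher.

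Pcdhga1 took at most 1.76% of all gamma counts in any tumour, so a difference of its size would not be visible in the gamma sum. All gamma genes together had 310 ± 30.2 CPM in DOX tumours and 295 ± 42.6 CPM in control tumours (SD, n = 4 each), with overlapping groups. The 17 gamma-A and gamma-B genes without Pcdhga1 summed to 62.8 ± 7.81 CPM in DOX tumours and 60.4 ± 5.31 CPM in control tumours (SD, n = 4 each). These groups overlapped too, and this sum depends on how reads were divided. As a share of all gamma counts, Pcdhga1 made up 0.631%, 0.516%, 0.588% and 0.451% in DOX tumours 1 to 4, against 1.76%, 1.13%, 1.15% and 1.20% in control tumours 1 to 4. Control tumour 1 had the highest share, and the other 3 control tumours lay close together, above every DOX tumour. Within the gamma-A genes, the share of Pcdhga1 averaged 4.88 ± 0.444% in DOX tumours and 11.1 ± 2.29% in control tumours (SD, n = 4 each).

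**Figure D3:**
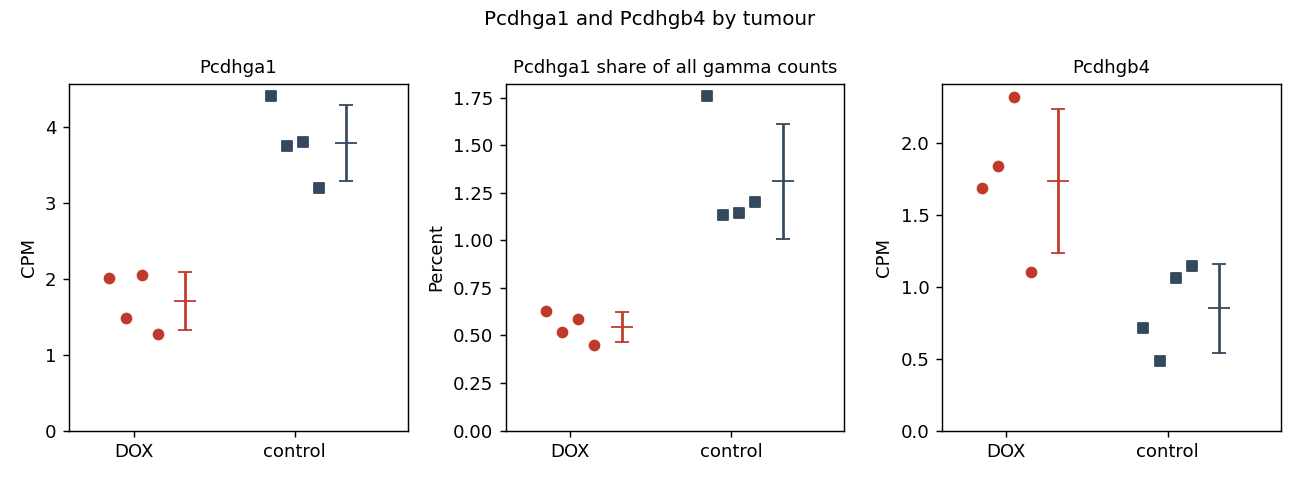
CPM of Pcdhga1 (left), the share of Pcdhga1 in all gamma counts in percent (middle) and CPM of Pcdhgb4 (right) in each DOX (circles) and control (squares) tumour, with the group mean and SD (bar) beside the points. The Pcdhga1 groups are apart on both scales, from 1.28 to 2.05 CPM in DOX tumours and 3.19 to 4.41 CPM in control tumours, while the Pcdhgb4 groups overlap in DOX tumour 4.

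Since the family was chosen for Pcdhga1 in this comparison, its difference is described here without a test. Pcdhga2, the next gene on the chromosome, had a higher mean in DOX tumours, with 4.27, 4.10, 5.22 and 2.25 CPM in DOX tumours 1 to 4 and 1.58, 3.74, 2.05 and 3.07 CPM in control tumours 1 to 4. Its groups overlapped and its log2 fold change was 0.60 ± 0.32 (SE). Pcdhga3 followed with 0.12 ± 0.21 (SE). Among the 18 gamma-A and gamma-B genes in chromosomal order, 7 of the 17 neighbouring pairs had log2 fold changes of the same sign.

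**Figure D4:**
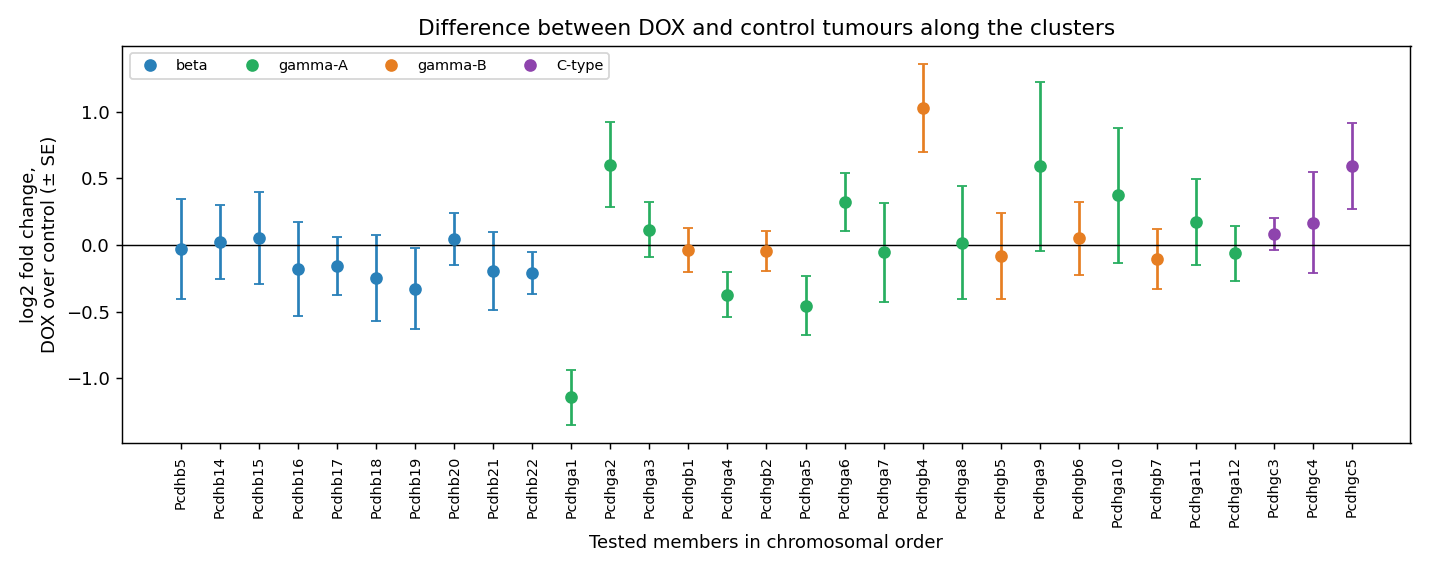
log2 fold change of DOX over control tumours, with its SE (bars), for the 31 tested members in chromosomal order, colored by group. Pcdhga1 lies lowest at −1.14, Pcdhgb4 highest at 1.03, and the beta genes between −0.33 and 0.05.

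Of the other gamma-A genes, Pcdhga6, the gamma-A member with the highest mean level, had 10.1, 7.63, 7.84 and 5.25 CPM in DOX tumours 1 to 4, against 4.86, 7.43, 7.10 and 5.23 CPM in control tumours 1 to 4. The groups overlapped, although DOX tumour 1 lay above all others, and the log2 fold change was 0.32 ± 0.22 (SE). Pcdhga3 had 7.08, 5.66, 8.12 and 6.08 CPM in DOX tumours 1 to 4 and 3.94, 7.68, 6.71 and 6.60 CPM in control tumours 1 to 4. Control tumour 1 was the lowest of the 8.

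Pcdhga4 and Pcdhga5 had the next smallest p-values among gamma-A genes and, like Pcdhga1, were lower in DOX tumours. Pcdhga4 had 3.75, 4.15, 4.0 and 4.50 CPM in DOX tumours 1 to 4, against 5.82, 3.8, 5.64 and 5.99 CPM in control tumours 1 to 4, and a log2 fold change of −0.37 ± 0.17 (SE). Control tumour 2 lay within the DOX range and the other 3 control tumours above it. Pcdhga4 also has the highest share of words in common with other genes, as given above. Pcdhga5 had 1.82, 2.73, 2.62 and 1.6 CPM in DOX tumours 1 to 4, against 3.55, 2.73, 2.78 and 2.93 CPM in control tumours 1 to 4, and a log2 fold change of −0.46 ± 0.22 (SE). The lowest control tumour and the highest DOX tumour of Pcdhga5 were close to each other.

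Pcdhga9 varied widely within both groups. It had 2.66, 2.14, 1.84 and 0.312 CPM in DOX tumours 1 to 4 and 1.27, 2.01, 1.02 and 0.271 CPM in control tumours 1 to 4, low in tumour 4 of each group. Its biological coefficient of variation was 61.1%, the widest among the 31 tested members. Pcdhga7, Pcdhga8, Pcdhga10, Pcdhga11 and Pcdhga12 had log2 fold changes between −0.06 and 0.37. Summed over the 12 gamma-A genes, the level was 34.7 ± 5.70 CPM in DOX tumours and 34.5 ± 3.49 CPM in control tumours (SD, n = 4 each).

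Among the gamma-B genes, Pcdhgb4 was higher in DOX tumours, with 1.69, 1.84, 2.32 and 1.11 CPM in DOX tumours 1 to 4, against 0.712, 0.483, 1.06 and 1.14 CPM in control tumours 1 to 4. DOX tumours 1 to 3 lay above every control tumour, and DOX tumour 4 lay below the highest control tumour. The log2 fold change was 1.03 ± 0.33 (SE), with an unadjusted p of 0.0112 and a Benjamini-Hochberg adjusted p of 0.387 in edgeR's test. Control tumours 1 and 2 were the lowest of the 8. With both left out, a setting chosen after seeing the data, the log2 fold change of Pcdhgb4 was 0.65. Leaving out the lowest control values narrows the difference by construction, so nothing is read from this value. Pcdhgb2 had 9.73, 12.2, 12.8 and 12 CPM in DOX tumours 1 to 4 and 13.6, 13.8, 11.9 and 9.07 CPM in control tumours 1 to 4, and a log2 fold change of −0.05 ± 0.15 (SE).

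Pcdhgb6 had 5.92, 6.44, 7.09 and 3.76 CPM in DOX tumours 1 to 4 and 4.25, 4.15, 8.66 and 5.28 CPM in control tumours 1 to 4, so its spread within each group exceeded the difference between the group means (log2 fold change 0.05 ± 0.28, SE). Pcdhgb1 had 5.41, 6.25, 4.59 and 4.15 CPM in DOX tumours 1 to 4 and 5.19, 5.80, 4.43 and 5.55 CPM in control tumours 1 to 4. Its log2 fold change was −0.04 ± 0.17 (SE). Pcdhgb7 had 5.64, 4.09, 3.86 and 2.77 CPM in DOX tumours 1 to 4, against 3.36, 4.94, 4.98 and 4.41 CPM in control tumours 1 to 4. The Pcdhgb7 groups overlapped, with both the highest and the lowest value among DOX tumours, and its log2 fold change was −0.11 ± 0.23 (SE). For Pcdhgb5 the log2 fold change was −0.08 ± 0.33 (SE). The gamma-B sum was 29.8 ± 3.00 CPM in DOX tumours and 29.6 ± 2.10 CPM in control tumours (SD, n = 4 each).

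The beta genes encode protocadherins without a constant cytoplasmic part. In DOX tumours 1 to 4 their sum was 33.0, 30.9, 38.4 and 24.5 CPM, against 23.4, 41.9, 35.6 and 37.5 CPM in control tumours 1 to 4. The groups overlapped, averaging 31.7 ± 5.76 CPM in DOX tumours and 34.6 ± 7.92 CPM in control tumours (SD, n = 4 each). Control tumour 1 was the lowest of the 8 tumours for 7 of the 10 tested beta genes, which are single-exon genes with few shared words.

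**Figure D5:**
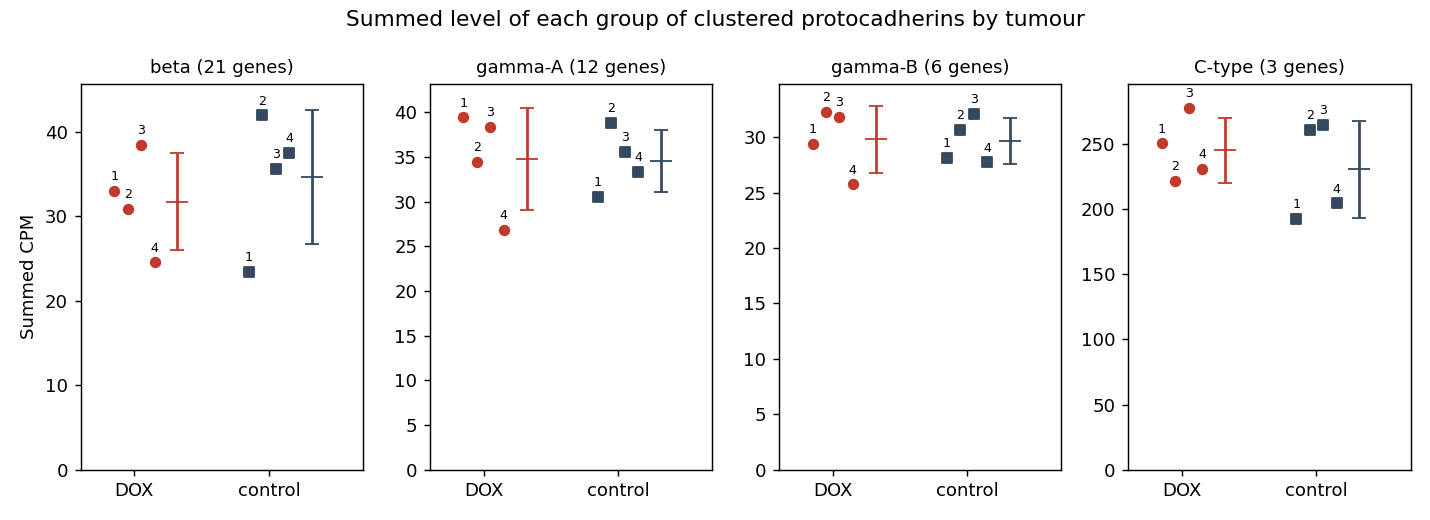
Summed CPM of the beta, gamma-A, gamma-B and C-type genes in each DOX (circles) and control (squares) tumour, numbered by tumour, with the group mean and SD (bar). The groups overlap in all 4 panels, and control tumour 1 is the lowest control tumour for the beta, gamma-A and C-type sums.

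Pcdhb22, the beta gene with the highest mean level, had 7.77, 6.43, 8.0 and 5.44 CPM in DOX tumours 1 to 4, against 7.48, 9.69, 7.49 and 7.34 CPM in control tumours 1 to 4, and a log2 fold change of −0.21 ± 0.16 (SE). Pcdhb20 had 6.55, 6.28, 7.57 and 5.02 CPM in DOX tumours 1 to 4 and 4.32, 6.73, 6.05 and 7.57 CPM in control tumours 1 to 4, and a log2 fold change of 0.04 ± 0.19 (SE). The groups of both genes overlapped.

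Pcdhb14 had 3.54, 3.23, 4.57 and 2.79 CPM in DOX tumours 1 to 4 and 1.82, 4.22, 3.44 and 4.39 CPM in control tumours 1 to 4. Pcdhb19 had 2.24, 1.41, 2.51 and 1.48 CPM in DOX tumours 1 to 4, against 1.41, 2.72, 3.39 and 2.09 CPM in control tumours 1 to 4. Its log2 fold change of −0.33 ± 0.30 (SE) was the lowest among the tested beta genes. Pcdhb18 had 2.01, 1.37, 2.36 and 1.31 CPM in DOX tumours 1 to 4, against 1.04, 2.25, 2.29 and 2.83 CPM in control tumours 1 to 4, with the lowest value in control tumour 1. Of the 10 tested beta genes, 7 were lower and 3 higher in DOX tumours, and none had an unadjusted p under 0.05. The filter on low counts lay between Pcdhb7, with 69.19 counts in all and not tested, and Pcdhb15, with 86.44 and tested.

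Over all 31 tested members, 16 were lower and 15 higher in DOX tumours (median log2 fold change −0.03), beside 53.2% lower and a median of −0.01 among all tested genes. No member passed an adjusted p of 0.05 in edgeR's test, and at an unadjusted p of 0.05 there was 1 lower member, Pcdhga1, and 1 higher, Pcdhgb4, beside 3.95% and 7.65% of all tested genes. Since the choice of family used this comparison, nothing is read from these counts. In 15 of the 31 members the biological coefficient of variation lay above the trend for their level, against 23.7% of all tested genes.

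Genes next to the clusters and genes that act on them were read from lists. Of the 28 genes within 500 kb of the clusters, 25 were tested and none passed the adjusted threshold in edgeR or in DESeq2, which called 0.618% of all genes it tested (0.151% lower). Hdac3, a histone deacetylase gene beyond the gamma cluster, was the 1 with an unadjusted p under 0.05, at −0.14 ± 0.06 (SE, log2), beside 11.6% of all tested genes in either direction. For Fchsd1 and Diaph1, also beyond the gamma cluster, the log2 fold change was −0.16 ± 0.08 and 0.13 ± 0.08 (SE). Cd14, the lipopolysaccharide co-receptor gene before the alpha cluster, had 0.83 ± 0.41 (SE). It had 13.9, 25.6, 13.8 and 51.6 CPM in DOX tumours 1 to 4, against 18.1, 13.9, 14.7 and 12.1 CPM in control tumours 1 to 4. DOX tumours 1 and 3 thus lay within the control range. Of all 25 tested neighbours, 17 were lower and 8 higher in DOX tumours, at a median log2 fold change of −0.04, beside 53.2% lower among all tested genes.

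Among 25 tested regulators of the locus, 24 had a lower and 1 a higher mean level in DOX tumours (median log2 fold change −0.08), beside 53.2% lower among all tested genes, and none passed the adjusted threshold in edgeR's test. Ctcf, which encodes the protein that binds the promoters, had −0.04 ± 0.06 (SE, log2). Rad21, a cohesin subunit, had −0.21 ± 0.08 (SE, log2), an unadjusted p of 0.0215 and an adjusted p of 0.387 in edgeR's test. Smchd1, a protein that restrains the clusters, had −0.11 ± 0.08 (SE, log2), and the 1 higher regulator was the DNA methyltransferase gene Dnmt3a.

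Of the 27 tested partners and processing enzymes, 18 were higher and 9 lower, with a median log2 fold change of 0.05, and 7 were higher and 1 lower at an unadjusted p of 0.05, beside 7.65% and 3.95% of all tested genes. Src, a tyrosine kinase, had 187.5 ± 9.59 CPM in DOX tumours and 150.8 ± 11.7 CPM in control tumours (SD, n = 4 each). In log2 terms Src differed by 0.31 ± 0.07 (SE), with an adjusted p of 0.387 in edgeR's test and 0.0254 in DESeq2. Ptk2b, a kinase that binds the constant domain, had 0.50 ± 0.16 (SE, log2), and Aph1a and Psen2, parts of the gamma-secretase that cuts protocadherins, had 0.22 ± 0.08 and 0.40 ± 0.15 (SE, log2). Ptk2b had 45.0, 66.8, 55.4 and 81.3 CPM in DOX tumours 1 to 4, against 40.9, 42.7, 47.5 and 44.4 CPM in control tumours 1 to 4, and Psen2 was likewise highest in DOX tumour 4, at 43.4 CPM. The summed macrophage markers ran in the same order over the DOX tumours as Ptk2b, with 2595, 3376, 2924 and 4553 CPM in DOX tumours 1 to 4, and the part of leukocytes in these differences was not tested.

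Protocadherins outside the clusters and classical cadherins were also measured. Of 24 other protocadherins and relatives, 14 were tested, 6 were higher and 8 lower, and the median log2 fold change was −0.16. Pcdh18 had 195.6 ± 39.9 CPM in DOX tumours and 223.4 ± 21.3 CPM in control tumours (SD, n = 4 each), and Celsr1, a seven-pass cadherin of planar cell polarity, had 0.81 ± 0.34 (SE, log2). Of the 10 tested cadherins and catenins, 2 were higher and 8 lower, with a median of −0.13, and none had an unadjusted p under 0.05.

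In bulk tumour RNA, fewer cells of a type and less RNA per cell cannot be told apart, so the marker lists of other cell types are given beside Pcdhga1 and the sums. T cell markers were higher, with 11 of 11 tested at an unadjusted p under 0.05, beside 7.65% of all tested genes (median log2 fold change 1.35), and a summed level of 82.6 to 265.0 CPM in DOX tumours, against 34.3 to 81.6 CPM in control tumours. Macrophage markers were higher in 10 of 10, 8 of them at that threshold, with 2595 to 4553 CPM in DOX tumours and 1969 to 2267 CPM in control tumours. None of these markers passed the adjusted threshold in edgeR's test. DESeq2 called 3 of the T cell markers (Cd3d, Cd8b1 and Zap70) and 4 of the macrophage markers (Csf1r, C1qa, C1qb and C1qc) higher, beside 0.468% of all genes it tested. Their part in the Pcdhga1 difference was not tested.

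Skeletal muscle markers were higher in 11 of 11, with 6 at an unadjusted p under 0.05, beside 7.65% of all tested genes, and summed to 28.3 to 227.9 CPM in DOX tumours and 5.17 to 69.5 CPM in control tumours. Fibroblast markers summed to 4230 to 6436 CPM in DOX tumours and 4276 to 7829 CPM in control tumours (median log2 fold change −0.08). DESeq2 called 1 of these 12 markers, Thy1, higher (adjusted p 0.0236), beside 0.468% of all genes it tested. In edgeR the log2 fold change of Thy1 was 1.00 ± 0.27 (SE). Endothelial markers summed to 73.4 to 120.2 CPM in DOX tumours and 69.6 to 124.0 CPM in control tumours, with a median of 0.04. The part of these cells in the sums was not tested.

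Markers of nerve cells were read because neurons are where the family is best known. Of the defining neuron markers, Tubb3 averaged 34.7 CPM in DOX tumours and 33.8 CPM in control tumours and made up most of the list's sum. Without Tubb3, the other 14 neuron markers summed to 5.90 to 7.79 CPM in DOX tumours, against 15.5, 18.5, 7.68 and 6.37 CPM in control tumours 1 to 4. Snap25, a synaptic protein gene, was at 0.0528, 0, 0.0371 and 0.0577 CPM in DOX tumours 1 to 4, against 2.33, 2.65, 0 and 0 CPM in control tumours 1 to 4. Syt1, Elavl3, Rbfox3 and Nefl, and the glial gene Gfap, were also higher in control tumours 1 and 2 than in any other tumour. Sox10, a Schwann cell marker, was at 0 in the 4 DOX tumours and in control tumours 3 and 4, while Erbb3, which other cells also express, averaged 22.4 CPM in DOX tumours and 26.3 CPM in control tumours. Of the 15 neuron markers 4 passed the filter on low counts, and the whole list, Tubb3 included, summed to 40.2 to 43.0 CPM in DOX tumours and 37.3 to 52.4 CPM in control tumours. Schwann cell and glia markers summed to 108.5 to 147.2 CPM in DOX tumours and 110.1 to 152.1 CPM in control tumours. With control tumours 1 and 2 both left out, a setting chosen after seeing the data, the log2 fold change of Pcdhga1 was −1.03 ± 0.26 (SE) and no member passed the adjusted threshold in edgeR's test, beside 0 with all 8 tumours. The part of nerve tissue in the Pcdhga1 difference was not tested.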

How the data were processed

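Per the labels' protocols, total RNA was column-purified from 0.1 g of tumour and made into mRNA libraries. The authors deposited expected counts and FPKM for 18251 genes, 1 column per tumour. HISAT and Bowtie2 are listed, with GRCm38.p6 as build, in the submitters' processing notes. The sources used here do not give the counting tool or any use of strand. Only 64.9% of the deposited values lie within 0.005 of a whole number, so reads were apparently divided among similar genes. Another 8 columns match no sample label and were not used. Expected counts were rounded for testing. edgeR 4.0.16 in R 4.3.3 kept 13436 genes by filterByExpr, scaled libraries by TMM, and applied its quasi-likelihood F test (robust fit) with Benjamini-Hochberg adjustment over all tested genes, DOX over control. The SE is the log2 fold change over the root of F. CPM is TMM-scaled, and the FPKM deposited by the authors serve for levels per length and as an alternative with limma 3.58.1. DESeq2 1.42.0 is another alternative. The common biological coefficient of variation was 14.7%, and every pair of libraries differed by more than sampling noise. The tumours came from different mice, so p-values set the group difference against the spread between tumours of different animals. With 1 column per tumour, that spread cannot be split into animal and technical parts. The code was tested on simulated data.

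Coordinates and exons come from GENCODE M21 (GRCm38). Shared words were counted over its transcripts, using the longest transcript of each beta gene. For each alpha or gamma gene, the longest transcript joined to the constant exons was used. Of 57 annotated names of the family, 47 are in the table, and Pcdha10 has no entry under that name there. Other annotated names were not analysed here. The members and gene lists were chosen with earlier results of these data known. By the rule for named genes, values per tumour are given for Pcdhga1 and, in each cluster, for the 3 tested members with the highest mean CPM and the 3 with the smallest p, and others are given by range. From every other list, the 4 genes of smallest p could be named, and, in marker lists, the most abundant. Pcdhga2, Pcdhga9, Pcdhgb5, Ctcf, Smchd1, Dnmt3a, Pcdh18, Snap25, Syt1, Elavl3, Rbfox3, Nefl, Gfap, Sox10, the epithelial genes, the genes called by DESeq2 and Gm37013 were named for their roles or levels after their values were seen.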

Additional observations from a re-analysis of the deposited data

Results flagged for a closer look

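In 3 of 72 groups of 4 tumours tested, 1 tumour stood far from the other 3 by Dixon's test at the 95% level, where chance flags about 1 in 20 groups. Pcdhb22 had 9.69 CPM in control tumour 2, against 7.34 to 7.49 CPM in the other control tumours. Pcdhga4 had 3.8 CPM in control tumour 2, against 5.64 to 5.99 CPM in the others. Pcdhga7 had 0.618 CPM in control tumour 1, against 0.951 to 1.02 CPM in the others.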

How the results depend on the processing

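With DESeq2 on all genes, 1 member, Pcdhga1, passed the adjusted threshold in the lower direction (adjusted p = 0.0103), against 0 in edgeR (adjusted p = 0.387). The family was chosen for this gene in this comparison, so neither value is evidence about it. In every other setting tried the count was 0, with adjusted p-values of Pcdhga1 from 0.114 to 0.717 in edgeR and limma. The fits with RLE scaling, without a filter, on unrounded counts and on log2(FPKM + 0.1) or log2(FPKM + 1) are among them. With the replicate block, edgeR called 0 members and the adjusted p of Pcdhga1 was 0.163. Tumours with the same number correlated by 0.00, 0.04, 0.09 and −0.02 in their deviations from the group means. Of the DOX tumours, 0 of 4 matched their own number best. Whether tumours of the same number shared a handling step was not otherwise tested.

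Of 496 log2 fold changes of members under 16 alternatives, 491 moved by less than the spread. With log2(FPKM + 1), Pcdhga1 came to −0.40, Pcdhga5 to −0.16 and Pcdhgb4 to 0.22. These genes averaged 0.59, 0.56 and 0.28 FPKM, below the added 1, which shrinks their log2 fold changes. With log2(FPKM + 0.1), Pcdhga1 came to −0.97 and Pcdhgb4 to 0.74. With control tumours 1 and 2 both left out, a setting added after seeing the data, Pcdhga9 came to 1.39 and Pcdhgb4 to 0.65, the adjusted p of Pcdhga1 was 0.530, and 2 members were lower and 0 higher at an unadjusted p under 0.05. The sign changed under some alternative in 19 of 31 members. Leaving out 1 tumour at a time, the log2 ratio of sums ranged from −0.27 to −0.02 (beta), −0.06 to 0.11 (gamma-A), −0.03 to 0.07 (gamma-B), 0.01 to 0.16 (C-type) and 0.00 to 0.13 (all gamma), and the difference in Pcdhga1 share from −0.82 to −0.61 percentage points. Leaving out DOX tumour 4 gave 3 members higher at an unadjusted p under 0.05, against 1. The share of all tested genes at that threshold with tumours left out is not given here, so nothing is read from such counts of members.

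With a tolerance of 0.05, fractional values made up 60.5% (beta), 92.7% (gamma-A), 93.8% (gamma-B), 87.5% (C-type) and 33.7% (other genes). Among values of at least 10 they made up 97.6% (beta) and 40.3% (other genes). The causes were not tested. Depth limits the alpha genes and members near 1 CPM most. Division of shared reads makes single gamma levels uncertain.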

Other observations

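Although no single gamma count was a whole number, the sum over the 21 gamma genes lay within 0.05 of a whole number in 6 of 8 libraries, a measure chosen after the values were seen. The sums were 6169.99, 5552.98, 6666.98 and 5302.99 in DOX tumours 1 to 4, and 4595.65, 6374.97, 6399.56 and 4953.01 in control tumours 1 to 4. Gm37013, an annotated gene that spans the alpha to gamma clusters and is no member, had 2.8 counts in control tumour 1, 5.44 in control tumour 3 and 0 in the other 6 tumours. With its counts added, the gamma sum came to 4598.45 in control tumour 1 and 6405 in control tumour 3. How the reads were divided was not tested. The sums of gamma-A and of C-type genes alone were near whole numbers in 0 of 8 libraries, that of gamma-B in 1 and that of the beta genes in 1.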
